A study of Mus musculus with 16 samples.

Results

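The genes described here are the splicing factor families of mouse splenic conventional type 1 dendritic cells (cDC1s): the SR proteins (Srsf genes), the heterogeneous nuclear ribonucleoproteins (Hnrnp genes), the core proteins of the small nuclear ribonucleoproteins or snRNPs (Snrp genes), the Sf3a and Sf3b subunits of the U2 snRNP, and the Prpf pre-mRNA processing factors. Members were taken by symbol: every gene of the deposited log2 table whose symbol starts with Srsf and a digit, Hnrnp, Snrp, Sf3a or Sf3b and a digit, or Prpf and a digit. This gave 63 of the 24421 genes of the raw count table, namely 10 Srsf, 20 Hnrnp, 11 Snrp, 9 Sf3 and 13 Prpf genes. All 63 were among the 11978 genes with enough counts to be tested. A further 2 symbols of the raw table match the name patterns but are not in the log2 table: Snrpn was listed at 0 counts in all 16 libraries, and Srsf12 had 14 counts over all libraries.

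RNA was sequenced in bulk from sorted cDC1s, dendritic cells that excel at showing antigen to CD8 T cells, taken from spleens of C57BL6 mice at steady state. The 4 groups of 4 libraries were mature cDC1s of Xbp1flIre1fl mice, mature cDC1s of Xbp1fl mice, immature cDC1s of Xbp1flIre1fl mice and immature cDC1s of Xbp1fl mice. In both lines the named genes carry loxP-flanked alleles that were left undeleted, and the labels call both functionally WT. The labels give neither ages, nor the gates that parted mature from immature cells, nor whether replicates were different mice. The p-values thus reflect only how far these libraries scatter, which may be technical.

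Introns are removed by the spliceosome, which is built on each pre-mRNA from snRNPs. An snRNP is a small nuclear RNA wrapped by a ring of Sm proteins, or of Lsm proteins in U6. Proteins particular to U1, U2, U4, U5 or U6 are added to it. SR proteins mostly bind exons and promote the use of nearby splice sites, hnRNPs often oppose them, the Sf3a and Sf3b subunits hold the U2 snRNP on the branch point, and Prpf proteins assemble, activate and take apart the machine. Many SR and hnRNP genes also limit their own expression through exons or introns that send the transcript to nonsense-mediated decay. Counts per gene, as used here, do not show which isoform was made.

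Mature libraries held 13948232 to 16572576 counts and immature libraries 15083053 to 17000763 (8 each). Ccr7, the chemokine receptor of mature dendritic cells, was at 4988 to 13425 CPM (counts per 1e6 counts, scaled by the trimmed mean of M-values, TMM) in mature and 107 to 320.4 CPM in immature libraries, and replicates 2 and 4 of mature Xbp1flIre1fl had the 2 lowest mature levels. The cDC1 markers Xcr1 (434 to 709 CPM in mature and 667 to 827 CPM in immature libraries) and Clec9a (111 to 195 CPM against 186 to 214 CPM) were present in every library. Of 8 cDC1 markers 4 fell, 2 rose and 2 did not pass (summed level 4126 to 5772 CPM in mature and 5574 to 6645 CPM in immature libraries). Markers of 9 other cell types were followed beside the results. All 8 B cell markers rose in mature cells (summed level 294 to 972 CPM in mature and 100.2 to 155 CPM in immature libraries), as did 7 of 9 macrophage markers (394 to 891 CPM against 109 to 445 CPM), 4 of 5 cDC2 markers (143 to 312 CPM against 54.5 to 93.9 CPM) and 3 of 4 tested T cell markers (36.3 to 63.7 CPM against 19.1 to 30.7 CPM). Of 4 plasma cell markers 2 rose and 1 fell, 1 of 4 plasmacytoid dendritic cell markers and 1 of 4 neutrophil markers fell, and 0 of 3 NK cell markers passed. Of 3 erythroid markers Hba-a1 was at 0 counts, and their summed level was 2.66 to 14.8 CPM in mature and 3.16 to 23.3 CPM in immature libraries. All 26 cell cycle genes fell (1106 to 1723 CPM against 2218 to 2617 CPM). These shifts accompany each mature against immature result below, and their part in those results was not tested. In bulk libraries, fewer cells of a type and less RNA per cell cannot be told apart.

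Promoter sequences were compared because most members changed together. Of the 63 members, 55 had at least 1 RefSeq promoter entry (72 entries, GRCm38.p6), and the 250 bases before each annotated start were searched on both strands for CCGGAAG (the core bound by ETS factors), CCAAT (the box bound by NF-Y), CACGTG (the E-box) and TATAAA (the TATA box). The 4 stretches printed here run 5′ to 3′ on the gene's own strand, with every match that lies whole within a stretch in capitals (a further CCGGAAG of Sf3b6, from position -70 relative to the annotated start, is cut by the end of its stretch; the reverse complement of CCGGAAG marks a match on the other strand). They come from Prpf19, the member with the largest change, Srsf5, the one Srsf gene with a fold change above 0, Sf3b6, from the family in which CCGGAAG was most common, and Snrpa, a U1 snRNP gene with 2 E-boxes. They lie before the start at chr19:10895131-10895230 (plus strand), chr12:80945399-80945498 (plus), chr12:4817444-4817543 (plus) and chr7:27196272-27196371 (minus).
Prpf19: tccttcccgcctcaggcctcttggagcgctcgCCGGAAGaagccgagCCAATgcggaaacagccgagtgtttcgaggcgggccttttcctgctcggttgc
Srsf5: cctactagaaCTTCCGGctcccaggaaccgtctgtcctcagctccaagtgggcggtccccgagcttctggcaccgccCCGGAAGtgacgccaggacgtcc
Sf3b6: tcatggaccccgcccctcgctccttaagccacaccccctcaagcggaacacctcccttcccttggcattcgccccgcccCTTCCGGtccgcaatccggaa
Snrpa: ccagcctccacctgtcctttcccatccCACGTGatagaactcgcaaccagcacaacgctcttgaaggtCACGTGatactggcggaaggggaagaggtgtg

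CCGGAAG stood in 22 of the 72 member promoters (30.6%), against 6.91% of all 32851 promoters and 13.8% of the promoters of tested genes. By gene it was found in 6 of 7 Sf3, 4 of 10 Srsf, 3 of 9 Snrp, 3 of 11 Prpf and 2 of 18 Hnrnp genes with an entry. CCAAT stood in 47.2% of member promoters, against 33.8% of all promoters and 35.4% of those of tested genes, and was most frequent in the Hnrnp family, with 17 of 27 promoters. CACGTG (11.1% against 6.02% and 8.22%) and TATAAA (6.94% against 12.4% and 6.37%) were rarer. The 18 genes with CCGGAAG had a median log2 fold change of -0.20 in mature over immature cells, with 13 lower and 0 higher, and the 37 genes with an entry and no match had a median of -0.22, with 25 lower and 4 higher. No binding was measured in these samples.

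Setting mature beside immature cDC1s addresses how expression shifts during maturation in the absence of infection. Most splicing factor genes were modestly lower in mature cells. Over both genotypes, 45 of the 63 members fell, 4 rose and 14 did not pass the test (edgeR quasi-likelihood test, adjusted p under 0.05 over all genes tested). Among all tested genes 67.6% passed, 33.4% higher and 34.2% lower, so that the calls of all genes split about evenly between the directions while those of members were mostly lower. The median log2 fold change was -0.21 for members and -0.01 for all genes tested. No member changed more than 2-fold, whereas 13.8% of all tested genes were called and over 2-fold, and the median size of change, regardless of sign, was 0.22 on the log2 scale for members and 0.37 for all genes. The 8 mature libraries lay wholly below the 8 immature ones for 19 members, against 15.0% of all genes, and wholly above for 1 member, against 18.0%.

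**Figure D1:**
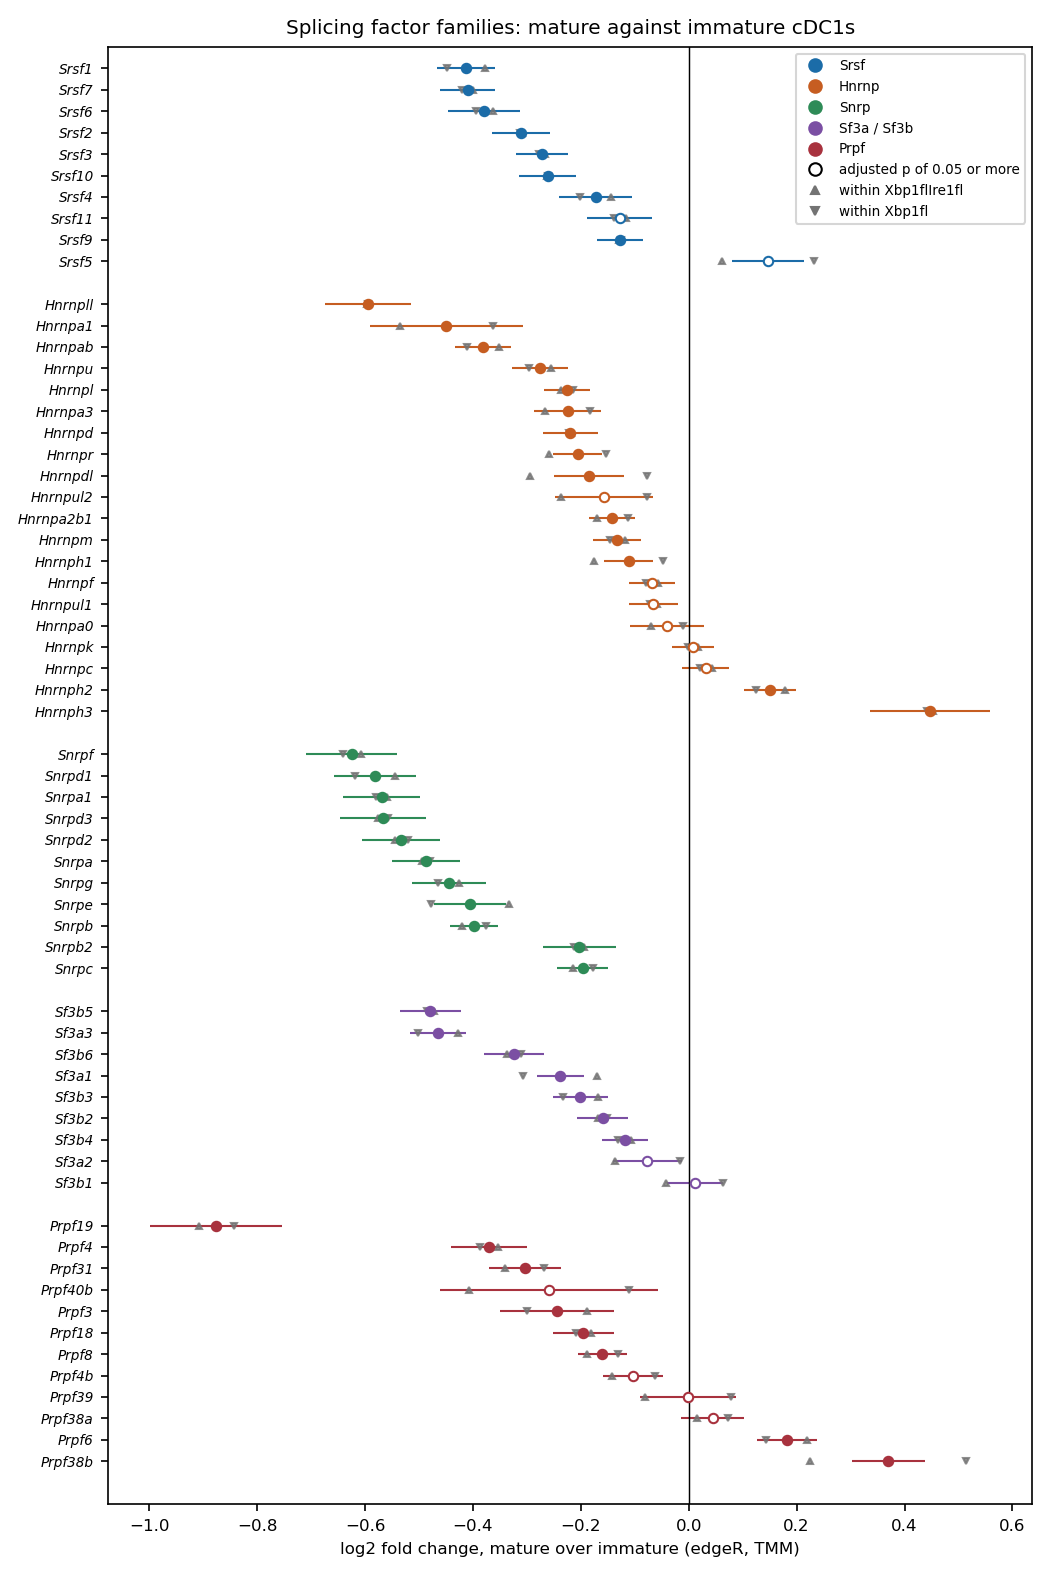
Log2 fold change of mature over immature cDC1s for the members, by family, except 1 Prpf gene that is not reported here; points with bars are the fit over both genotypes with its standard error, open points have an adjusted p of 0.05 or more, and triangles are the 2 genotypes alone. All 11 Snrp genes lie left of 0 with filled points, and Prpf19 lies furthest left at -0.88.

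Members were measured with little spread. Among the 60 members with at least 10 CPM on average, the median coefficient of variation within a group was 6.78%. It was 9.06% over all 7881 tested genes with at least 10 CPM, a set not otherwise matched to the members for level. The summed level of all members was 9454 to 10768 CPM in mature libraries and 11031 to 11506 CPM in immature libraries, and the 2 ranges did not overlap. By family, the mean summed level of mature over immature libraries was 0.737 for Snrp, 0.852 for Srsf, 0.884 for Prpf, 0.898 for Sf3 and 0.908 for Hnrnp genes.

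The scale used to set libraries side by side shifted every gene by a similar amount. With TMM the median log2 fold change of all tested genes was -0.01, with upper quartile scaling -0.13 and with library sizes alone -0.23. Relative to that median, the members' median stayed at -0.20 under all of these. The counts moved with it: 2 higher and 53 lower with upper quartile scaling, and 0 higher and 58 lower with library sizes alone. Directions of the members near 0 thus depend on the scale, and those of the Snrp family, with a median of -0.49 to -0.71, do not.

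**Figure D2:**
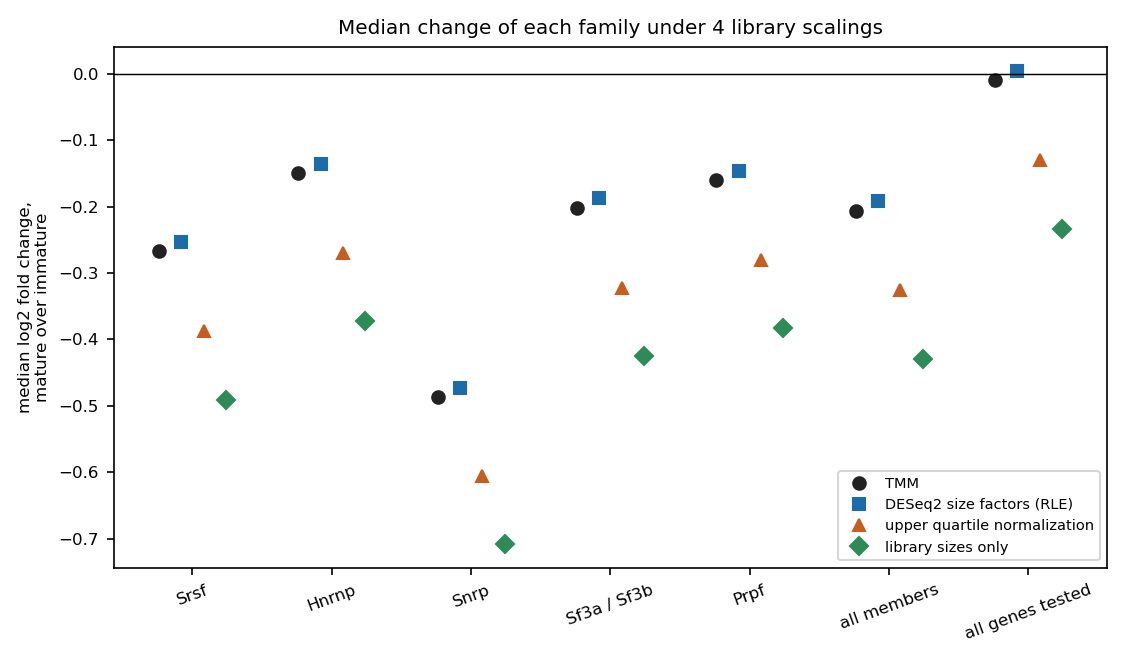
Median log2 fold change of mature over immature cDC1s for each family, all members and all tested genes under 4 library scalings. All sets shift together, and the Snrp median is the lowest of the families under each, from -0.47 to -0.71.

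The Snrp genes encode the Sm proteins and the proteins particular to U1 and U2, and all 11 of them fell, with a median log2 fold change of -0.49. Per kilobase of exon, Snrpb, one of the Sm proteins, was the most abundant (119 CPM per kb averaged over all libraries). Snrpf, the Sm protein F (chromosome 10), had the largest fold change in the family. It was at 13.4, 19.6, 13.3 and 15.3 CPM in mature Xbp1flIre1fl libraries and 14.8, 15.9, 15.9 and 12.9 CPM in mature Xbp1fl libraries, against 25.3, 25.8, 21.7 and 21.2 CPM in immature Xbp1flIre1fl and 21.7, 23.0, 24.1 and 24.2 CPM in immature Xbp1fl libraries. All 8 mature libraries lay below all 8 immature ones, and replicate 2 of mature Xbp1flIre1fl came nearest to them. The log2 fold change was -0.62 ± 0.08 (SE, adjusted p = 3.85e-06), a 1.54-fold lower level.

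Snrpb was at 188, 225, 186 and 204 CPM in mature Xbp1flIre1fl and 209, 205, 198 and 201 CPM in mature Xbp1fl libraries, against 281, 272, 271 and 251 CPM in immature Xbp1flIre1fl and 255, 268, 265 and 267 CPM in immature Xbp1fl libraries. The mature libraries again lay wholly below the immature ones (log2 fold change -0.40 ± 0.05, adjusted p = 4.87e-07). The 7 proteins of the Sm ring, Snrpb, Snrpd1, Snrpd2, Snrpd3, Snrpe, Snrpf and Snrpg, moved as a block: 7 of 7 fell, between 1.32-fold and 1.54-fold, and their summed level was 358 to 460 CPM in mature and 498 to 572 CPM in immature libraries. For Snrpd1, Snrpd2, Snrpe, Snrpf and Snrpg, 11.7% to 21.3% of the 50-base stretches also occur in transcripts of other genes. The levels and changes of these genes are thus uncertain. Among the proteins that belong to U1 or U2 alone, Snrpa (protein A of U1) fell with a log2 fold change of -0.49 and Snrpa1 (protein A′ of U2) with -0.57, while Snrpc (protein C of U1) and Snrpb2 (protein B″ of U2) fell less, both with -0.20. Snrpb2, with an adjusted p of 0.0134, was the least certain member of the family.

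Snrpa and Snrpb2 are close relatives that bind hairpins of U1 and U2 RNA, and their ratio within a library does not depend on any scaling. Counts of Snrpb2 over Snrpa were 0.255 to 0.357 in mature libraries (median 0.297) and 0.210 to 0.289 in immature libraries (median 0.241). The ranges overlapped, with the mature median higher. Of the 50-base stretches of Snrpa 22.5% also occur in transcripts of other genes, so this ratio is uncertain. The log2 ratio differed by 0.29 (0.32 in Xbp1flIre1fl and 0.26 in Xbp1fl). The exact two-sided permutation test of stage within genotype gave p = 0.00327, or 0.0104 after Benjamini-Hochberg adjustment over the 16 ratios computed. Stage labels moved freely within a genotype, here and for the ratios below, so libraries of the same number were not kept as pairs.

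Sm proteins reach the snRNA through the SMN complex after methylation by Prmt5, and 15 genes of this assembly route were followed beside them. Of these, 9 fell, 1 rose and 5 did not pass the test, with a median log2 fold change of -0.44. Prmt5, the arginine methyltransferase, was at 18.5 to 27.9 CPM in mature libraries (median 23.3) and 38.1 to 45.4 CPM in immature libraries (median 41.4). The ranges did not overlap, and its log2 fold change was -0.84 ± 0.07 (adjusted p = 9.87e-09). Clns1a (pICln), which hands Sm proteins to the methyltransferase, fell with -0.52 (adjusted p = 1.54e-07). Smn1, the gene of the SMN protein, had -0.48, Gemin5, which recognises the snRNA, -0.73 and Wdr77, the partner of Prmt5, -0.59, all past the test and named after their values were seen. Gemin7 rose by 0.11 (adjusted p = 0.0473), a direction that turned to -0.01 with upper quartile scaling and -0.12 with library sizes alone. The other proteins of U snRNPs, which include the Lsm proteins, split into 16 lower, 3 higher and 10 not called of 29, with a median of -0.18. Lsm2 and Lsm4, parts of the Lsm ring of U6, fell with log2 fold changes of -0.68 and -0.51, while Sart1 (0.20) and Snrnp200 (0.13), of the tri-snRNP and U5, rose. Both of these rises turned to -0.03 and -0.10 with library sizes alone.

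The Srsf genes encode SR proteins, and 8 of 10 fell, 0 rose and 2 did not pass, with a median log2 fold change of -0.27. Srsf2, which promotes exon inclusion, was the most abundant per kilobase (144 CPM per kb). Srsf1, the founding SR protein (first known as SF2 or ASF), was at 149, 158, 139 and 180.5 CPM in mature Xbp1flIre1fl and 139.7, 147, 134 and 159.6 CPM in mature Xbp1fl libraries, against 197, 203, 202 and 212 CPM in immature Xbp1flIre1fl and 211, 195, 187 and 200.2 CPM in immature Xbp1fl libraries. The mature libraries lay wholly below the immature ones. The log2 fold change was -0.41 ± 0.05 (adjusted p = 2.64e-06), or 1.33-fold lower.

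Srsf7, which also acts in mRNA export, was at 112 to 146 CPM in mature (median 131) and 161 to 193 CPM in immature libraries (median 175), without overlap (log2 fold change -0.41, adjusted p = 1.49e-06). Srsf6 was at 126 to 172 CPM in mature and 185 to 215 CPM in immature libraries, and Srsf10, a splicing repressor when dephosphorylated, at 69.0 to 81.8 CPM in mature and 82.0 to 101 CPM in immature libraries. Neither overlapped between the stages, and the log2 fold changes were -0.38 and -0.26. Srsf2 (-0.31) and Srsf3 (-0.27), which likewise couples splicing to export, fell with mature and immature ranges that overlapped. Srsf2 had 345 to 435 CPM in mature libraries and 431 to 512 CPM in immature ones, and Srsf3 had 345 to 427 CPM against 421 to 482 CPM. The smallest called falls were those of Srsf4 (-0.17, adjusted p = 0.0308) and Srsf9 (-0.13, adjusted p = 0.0127). The Srsf4 call was lost when any of 6 single libraries was left out (adjusted p = 0.05004 to 0.0647), namely replicates 2 and 3 of mature Xbp1flIre1fl, 1 and 3 of mature Xbp1fl, 3 of immature Xbp1flIre1fl and 4 of immature Xbp1fl. Srsf11 had the same fold change of -0.13 with an adjusted p of 0.068, which became 0.0456 when same-numbered libraries of a genotype were paired.

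Srsf5 stood apart from the other Srsf genes in the sign of its fold change. It was at 329, 353, 286 and 275 CPM in mature Xbp1flIre1fl and 372, 306, 279 and 288 CPM in mature Xbp1fl libraries, against 309, 273, 324 and 285 CPM in immature Xbp1flIre1fl and 262, 259.8, 259.7 and 278 CPM in immature Xbp1fl libraries. The stages overlapped, and the Xbp1fl immature libraries were the lowest of the groups. Over both genotypes the log2 fold change was 0.15 ± 0.07 (adjusted p = 0.0587). Taken alone, Xbp1flIre1fl gave 0.06 (adjusted p = 0.597) and Xbp1fl gave 0.23 (adjusted p = 0.0434), and the difference between the genotypes had an unadjusted p of 0.218. With library sizes alone the value over both genotypes was -0.08. Of the 50-base stretches of Srsf5 27.85% also occur in transcripts of 1 other gene, so its level is uncertain.

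**Figure D3:**
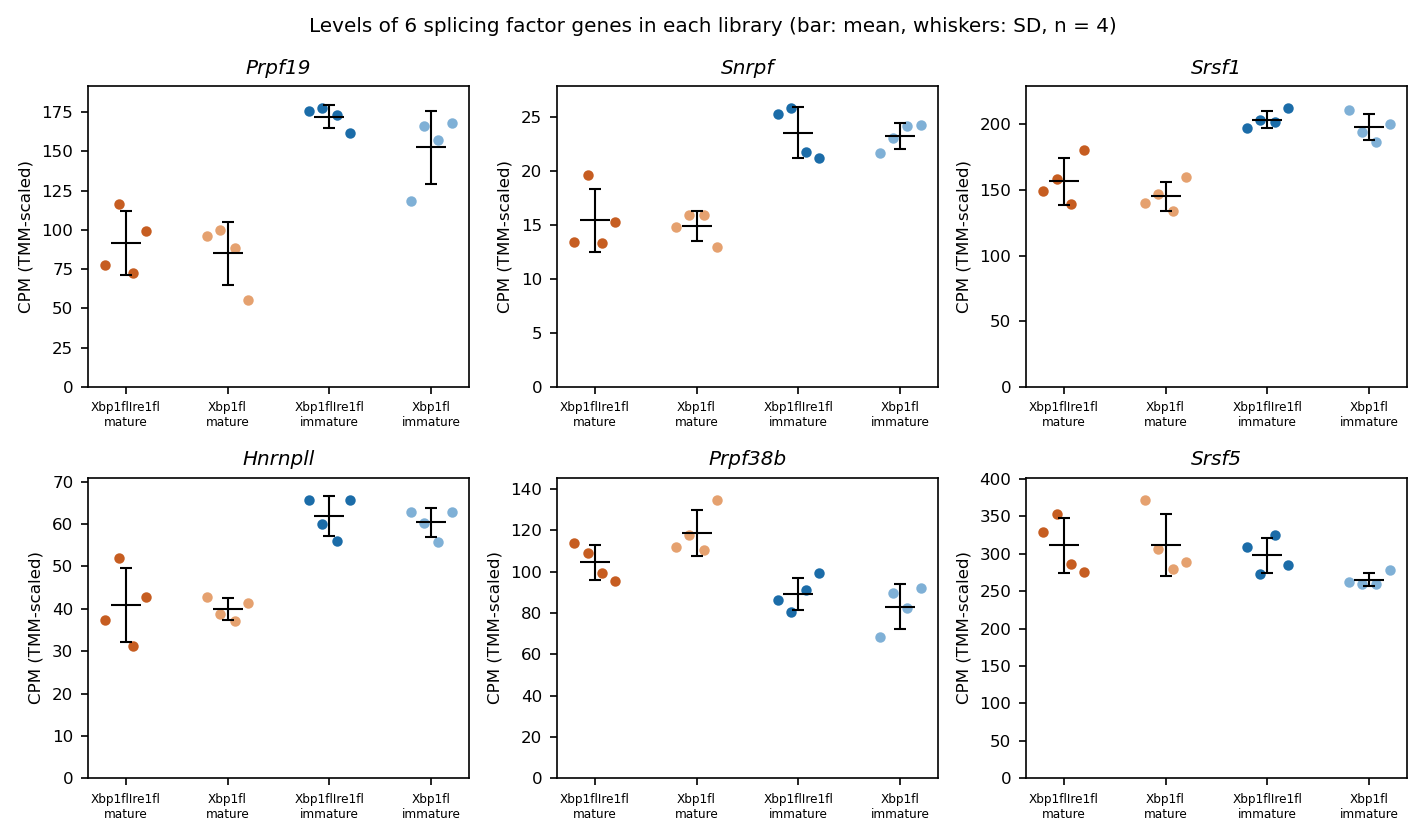
CPM (TMM-scaled) of 6 members in each of the 16 libraries by group, with the group mean and SD (n = 4); axes start at 0. Prpf19, Snrpf, Srsf1 and Hnrnpll are lower in every mature library than in any immature one, while Prpf38b is higher on average and Srsf5 overlaps.

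Ratios of SR genes within a library differed between the stages. Srsf9 over Srsf1, which share a domain layout, was 0.711 to 0.915 in mature (median 0.867) and 0.631 to 0.757 in immature libraries (median 0.686). The log2 ratio was 0.29 higher in mature cells (exact p = 0.000408, the smallest the 4900 arrangements can give, adjusted 0.00653), and the ranges overlapped. Srsf5 over Srsf4 was 16.2 to 26.3 in mature (median 20.3) and 14.8 to 18.0 in immature libraries (median 15.96), a log2 difference of 0.32 (exact p = 0.00408, adjusted 0.0109). Srsf6 over Srsf4 (-0.21, exact p = 0.0196, adjusted 0.0313) and Srsf7 over Srsf3 (-0.14, exact p = 0.0167, adjusted 0.0298) were lower in mature cells. Of the 16 ratios computed, from 17 pairs listed, 6 were higher, 4 were lower and 6 did not pass the adjusted test. In all 16 the stages overlapped. Ratios of other gene pairs were not computed, so whether such shifts are particular to these genes was not tested. For scale, 67.6% of all tested genes were called between the stages.

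**Figure D4:**
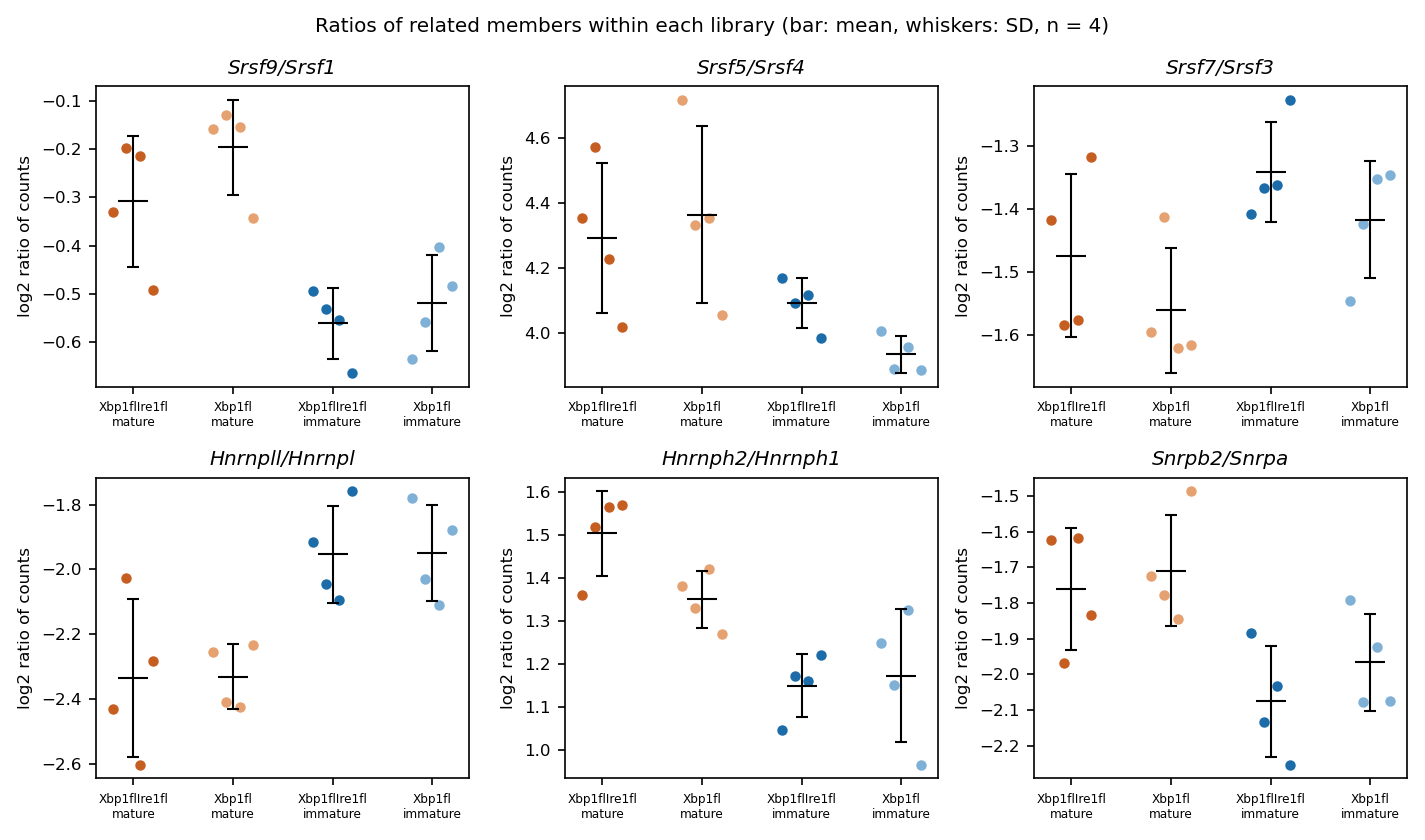
Log2 ratio of the counts of 2 related members in each library, for 6 of the 16 ratios, by group with mean and SD (n = 4). Srsf9/Srsf1, Srsf5/Srsf4, Hnrnph2/Hnrnph1 and Snrpb2/Snrpa average higher in mature libraries and Srsf7/Srsf3 and Hnrnpll/Hnrnpl lower, each with some overlap.

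SR proteins act in a phosphorylated state set by the Srpk and Clk kinases, and 22 tested genes of SR-related proteins and these kinases did not follow the Srsf genes: 10 rose, 6 fell and 6 did not pass, with a median log2 fold change of 0.15. With upper quartile scaling the split was 7 higher and 6 lower, and with library sizes alone it was 5 higher and 9 lower with a median of -0.07. Son, a protein of nuclear speckles, was at 148 to 187 CPM in mature and 115 to 137 CPM in immature libraries, without overlap, and its log2 fold change of 0.42 (adjusted p = 1.58e-06) was 0.19 with library sizes alone. Srpk3 was at 1.87 to 6.49 CPM in mature and 0.349 to 1.06 CPM in immature libraries, with a log2 fold change of 2.43 ± 0.27 (adjusted p = 4.39e-07) that rests on 94 immature counts in all. Named after their values were seen, the nuclear SR kinase genes Clk1, Clk3 and Clk4 rose by 0.50, 0.49 and 0.42, and the speckle protein gene Srrm2 by 0.40. With library sizes alone these values were 0.27, 0.26, 0.19 and 0.17, and Clk4 no longer passed (adjusted p = 0.0828). Among those that fell were Tra2b (-0.20) and Rnps1 (-0.21), and also the kinase genes Srpk1 (-0.25) and Srpk2 (-0.28), which act mainly in the cytoplasm.

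**Figure D5:**
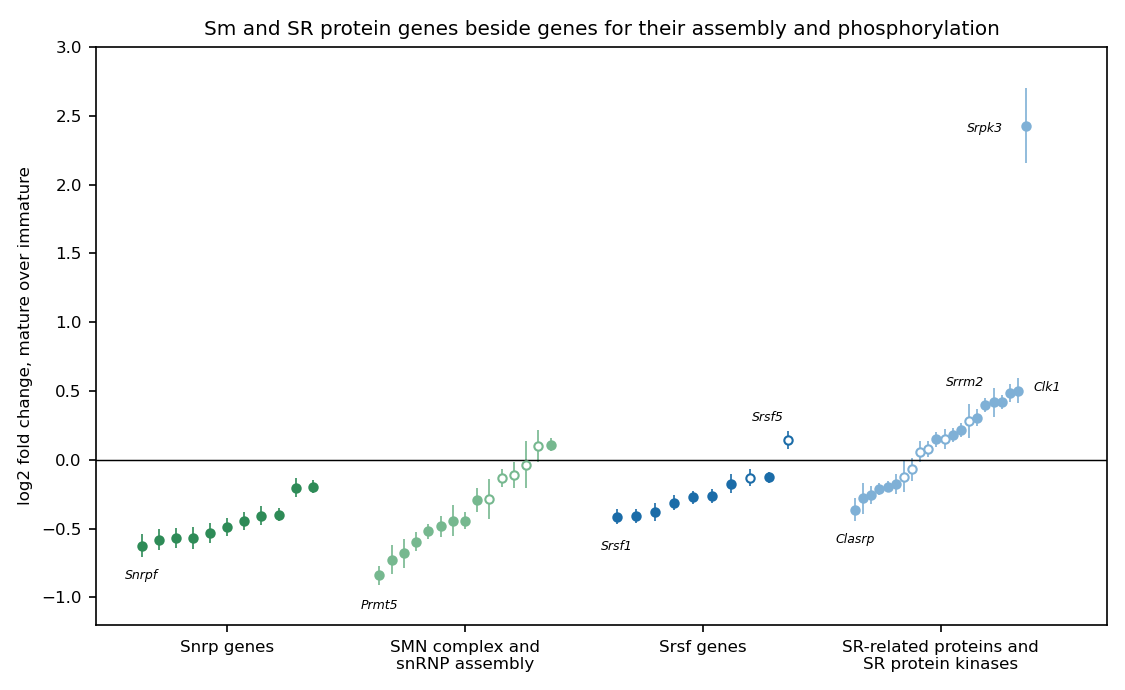
Log2 fold change (± SE) of mature over immature cDC1s for the Snrp genes beside the genes that assemble snRNPs, and for the Srsf genes beside SR-related proteins and SR kinases; open points have an adjusted p of 0.05 or more. The Snrp and assembly genes lie mostly below 0 (medians -0.49 and -0.44), and the Srsf genes lie below their partners (medians -0.27 and 0.15).

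Of the 20 Hnrnp genes, 12 fell, 2 rose and 6 did not pass, with a median log2 fold change of -0.15. Hnrnpf, which binds runs of G, was the most abundant of all members per kilobase (323 CPM per kb), followed by Hnrnpab (225 CPM per kb) and Hnrnpk (151 CPM per kb). Hnrnpf was at 909 to 1016 CPM in mature and 936 to 1091 CPM in immature libraries, which overlapped (log2 fold change -0.07, adjusted p = 0.172). Hnrnpk, a poly(C)-binding protein, had the least evidence of a difference in the family (log2 fold change 0.01 ± 0.04, adjusted p = 0.863), and Hnrnpc, which binds runs of U, had 0.03. For Hnrnpf and Hnrnpk, 49.0% and 34.5% of the 50-base stretches of their transcripts also occur in transcripts of other annotated genes, so reads could have been split in the counting.

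Hnrnpll, known in lymphocytes for switching the exons of the phosphatase gene Ptprc (CD45), had the largest fall of the family. It was at 37.3, 52.1, 31.3 and 42.9 CPM in mature Xbp1flIre1fl and 42.9, 38.8, 37.1 and 41.4 CPM in mature Xbp1fl libraries, against 65.7, 60.0, 56.1 and 65.7 CPM in immature Xbp1flIre1fl and 62.9, 60.2, 55.7 and 62.8 CPM in immature Xbp1fl libraries. No mature library reached the lowest immature one, and replicate 2 of mature Xbp1flIre1fl was the highest mature one. The log2 fold change was -0.59 ± 0.08 (adjusted p = 3.61e-06), or 1.51-fold lower. Against its relative Hnrnpl within each library, the ratio was 0.165 to 0.246 in mature (median 0.197) and 0.232 to 0.296 in immature libraries (median 0.255), a log2 difference of -0.38 in both genotypes (exact p = 0.00122, adjusted 0.00653).

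Hnrnpab, an RNA-binding protein with roles in splicing and transport, was at 485 to 614 CPM in mature and 678 to 767 CPM in immature libraries, without overlap (log2 fold change -0.38, adjusted p = 3.75e-06). Hnrnpu, the scaffold attachment factor of chromatin, was at 698 to 876 CPM in mature and 893 to 1014 CPM in immature libraries, also without overlap (-0.28, adjusted p = 1.42e-04). Hnrnpl, a CA-repeat binding protein, was the fourth without overlap, at 190.1 to 212 CPM in mature and 216 to 248 CPM in immature libraries. Hnrnpa1, in human cells among the best studied splicing repressors, was listed at only 1.93 to 3.76 CPM in mature and 3.07 to 4.57 CPM in immature libraries (log2 fold change -0.45 ± 0.14, adjusted p = 0.00959). Of its 50-base stretches 46.4% also occur in transcripts of 18 other genes, so its level and its change are uncertain. The other called falls, of Hnrnpa3, Hnrnpd, Hnrnpr, Hnrnpdl, Hnrnpa2b1, Hnrnpm and Hnrnph1, lay between -0.22 and -0.11, with overlapping ranges. The Hnrnph1 call was lost with DESeq2 (adjusted p = 0.0612), with its size factors (0.0705) and without replicates 2 and 4 of mature Xbp1flIre1fl together (0.0607). It was also lost when any of 8 single libraries was left out (adjusted p = 0.0524 to 0.0806), namely replicates 3 and 4 of mature Xbp1flIre1fl, 2 and 3 of mature Xbp1fl, 1 and 3 of immature Xbp1flIre1fl and 1 and 4 of immature Xbp1fl.

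The family also held members that rose, both of the group that binds runs of G. That group did not rise as a whole: Hnrnph1 fell (-0.11) and Hnrnpf (-0.07) did not pass. Hnrnph3 was at 5.73, 6.95, 6.09 and 4.92 CPM in mature Xbp1flIre1fl and 5.30, 6.09, 5.56 and 4.93 CPM in mature Xbp1fl libraries, against 4.41, 4.65, 4.37 and 3.85 CPM in immature Xbp1flIre1fl and 4.48, 3.09, 4.57 and 3.98 CPM in immature Xbp1fl libraries. It was the one member whose mature libraries all lay above the immature ones, and the one called higher in each genotype. Its log2 fold change was 0.45 ± 0.11 (adjusted p = 0.00176) at a low level, and 0.22 (adjusted p = 0.0785) with library sizes alone. Hnrnph2, encoded on chromosome X, was at 191 to 212 CPM in mature and 163 to 203 CPM in immature libraries, and its rise of 0.15 (adjusted p = 0.0104) did not pass with upper quartile scaling (0.03) and turned to -0.07 with library sizes alone. The ratio of Hnrnph2 to Hnrnph1, free of scaling, was 2.41 to 2.97 in mature (median 2.64) and 1.95 to 2.51 in immature libraries (median 2.24), a log2 difference of 0.27 (exact p = 8.16e-04, adjusted 0.00653). It is uncertain because 18.15% of the 50-base stretches of Hnrnph2 also occur in transcripts of 1 other gene.

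Other Hnrnp ratios were less clear. Hnrnpa2b1 over Hnrnpa1 was 0.32 higher on the log2 scale in mature cells (exact p = 0.0139, adjusted 0.0278), a value that inherits the uncertainty of Hnrnpa1. The ratios Hnrnpa3/Hnrnpa1 (0.23, exact p = 0.0555), Hnrnpr/Hnrnpu (0.07, exact p = 0.140), Hnrnpf/Hnrnph1 (0.04, exact p = 0.214), Hnrnpul2/Hnrnpul1 (-0.08, exact p = 0.397) and Hnrnpdl/Hnrnpd (0.03, exact p = 0.697) did not pass.

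The Sf3a and Sf3b subunits anchor the U2 snRNP at the branch point, and 7 of 9 fell, 0 rose and 2 did not pass, with a median log2 fold change of -0.20. Sf3a3, which links Sf3b to the rest of the U2 snRNP, was at 47.5, 58.9, 53.5 and 59.8 CPM in mature Xbp1flIre1fl and 47.8, 54.7, 51.3 and 50.7 CPM in mature Xbp1fl libraries, against 70.4, 72.2, 76.7 and 76.3 CPM in immature Xbp1flIre1fl and 70.8, 71.2, 71.2 and 76.3 CPM in immature Xbp1fl libraries. The stages were parted by a wide gap (log2 fold change -0.46 ± 0.05, adjusted p = 3.79e-07). Sf3b5, a small structural subunit, was at 38.0 to 46.5 CPM in mature and 53.8 to 64.2 CPM in immature libraries (-0.48, adjusted p = 6.85e-07). Sf3b6, which contacts the branch point adenosine, was at 53.0 to 64.8 CPM in mature and 68.3 to 85.5 CPM in immature libraries (-0.32, adjusted p = 6.13e-05). Neither overlapped between the stages.

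Sf3b1, the largest Sf3b subunit and a frequent site of mutation in human myeloid neoplasms, did not follow them. It was at 332 to 401 CPM in mature (median 344) and 332 to 380.0 CPM in immature libraries (median 353), which overlapped throughout, with a log2 fold change of 0.01 ± 0.05 (adjusted p = 0.856). Sf3b4, the most abundant Sf3 gene per kilobase (56.4 CPM per kb), fell by 0.12 on the log2 scale (adjusted p = 0.0197). Of its 50-base stretches 49.3% also occur in transcripts of 1 other gene, so its level and its change are uncertain. Sf3a1 (-0.24), Sf3b3 (-0.20) and Sf3b2 (-0.16) fell as well, and Sf3a2 (-0.08) did not pass. Sf3b2 over Sf3b1 was 0.600 to 0.753 in mature (median 0.668) and 0.685 to 0.847 in immature libraries (median 0.743), a log2 difference of -0.17 (exact p = 0.0114, adjusted 0.0261). The subunits of this complex thus changed by unequal amounts.

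The Prpf family held both the largest fall and the clearest rise of a well expressed member: 7 of 13 fell, 2 rose and 4 did not pass, with a median log2 fold change of -0.16. Prpf19, the ubiquitin ligase of the complex that activates the spliceosome (chromosome 19, 10895231 to 10909559, GRCm38), was at 77.9, 116, 72.8 and 99.4 CPM in mature Xbp1flIre1fl and 96.2, 100.2, 88.1 and 55.6 CPM in mature Xbp1fl libraries. In immature libraries it was at 176, 177, 173 and 162 CPM in Xbp1flIre1fl and 119, 166, 157 and 168 CPM in Xbp1fl. All mature libraries lay below all immature ones, by a narrow margin between replicate 2 of mature Xbp1flIre1fl and replicate 1 of immature Xbp1fl. The log2 fold change was -0.88 ± 0.12 (adjusted p = 1.06e-05), or 1.84-fold lower, with -0.91 in Xbp1flIre1fl and -0.84 in Xbp1fl.

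Prpf38b (chromosome 3), a relative of the B complex protein Prpf38a, rose. It was at 114, 109, 99.2 and 95.7 CPM in mature Xbp1flIre1fl and 112, 118, 110.5 and 135 CPM in mature Xbp1fl libraries, against 86.4, 80.8, 91.2 and 99.2 CPM in immature Xbp1flIre1fl and 68.3, 89.8, 82.2 and 92.3 CPM in immature Xbp1fl libraries. The stages overlapped through replicate 4 of immature Xbp1flIre1fl. The log2 fold change was 0.37 ± 0.07 (adjusted p = 1.08e-04), and 0.14 (adjusted p = 0.0782) with library sizes alone. Prpf38a did not pass (0.04, adjusted p = 0.512), and the ratio of Prpf38b to Prpf38a was 2.60 to 3.48 in mature (median 2.90) and 1.60 to 2.70 in immature libraries (median 2.51). That is a log2 difference of 0.32 (exact p = 0.00163, adjusted 0.00653).

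Among the proteins of the tri-snRNP, in which U4, U5 and U6 join, Prpf4 fell with a log2 fold change of -0.37 (adjusted p = 1.65e-04), Prpf31 with -0.30 (adjusted p = 5.83e-04) and Prpf3 with -0.24 (adjusted p = 0.0477). The Prpf3 call was lost with DESeq2 (adjusted p = 0.0604), with its size factors (0.0583) and with a filter of 1 CPM (0.052). It was also lost when any of 9 single libraries was left out (adjusted p = 0.0514 to 0.106), namely replicates 1 and 3 of mature Xbp1flIre1fl, 1 and 3 of mature Xbp1fl, 1 and 4 of immature Xbp1flIre1fl and 2, 3 and 4 of immature Xbp1fl. Prpf6, a bridge between U5 and U4/U6, was at 56.9 to 70.3 CPM in mature and 51.3 to 65.3 CPM in immature libraries. Its rise of 0.18 (adjusted p = 0.00769) did not pass with upper quartile scaling (0.06) and turned to -0.04 with library sizes alone. Prpf8, the catalytic centre's scaffold and the most abundant Prpf gene per kilobase (22.0 CPM per kb), fell by 0.16 on the log2 scale (adjusted p = 0.00494). Prpf18, a factor of the second step, fell with -0.20. Prpf39, a factor of U1, had the least evidence of a difference of all members (log2 fold change -0.00 ± 0.09, adjusted p = 0.988). The kinase Prpf4b (-0.10) and Prpf40b (-0.26, at 1.00 to 3.47 CPM in mature and 1.84 to 3.61 CPM in immature libraries) did not pass either.

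Splicing genes outside the families were mixed with TMM scaling, with which 34.2% of all tested genes were called lower and 33.4% higher. Among 49 other assembly and catalysis factors, 18 fell, 11 rose and 20 did not pass (median -0.11): the cyclophilin-type factor Ppil1 fell with a log2 fold change of -0.70 and the helicase Ddx39b with -0.35, while the helicase Ddx42 rose by 0.40 and Zrsr1 by 1.34. Among 43 tested other regulators, 20 fell, 7 rose and 16 did not pass (median -0.11). Mbnl1 (-0.64) and the polypyrimidine tract protein gene Ptbp1 (-0.33) fell and its relative Ptbp2 rose by 0.59. Pcbp4, a poly(C)-binding protein, was at 7.02 to 17.5 CPM in mature and 0.0575 to 0.785 CPM in immature libraries (log2 fold change 5.02 ± 0.30, 52 immature counts in all). The assembly and catalysis factors were 29 lower and 4 higher with upper quartile scaling and 36 lower and 2 higher with library sizes alone. Under the same scalings the other regulators were 29 lower and 3 higher, and 31 lower and 2 higher. Of 9 exon junction and decay genes, 4 fell and 3 rose, with a median of 0.03 that became -0.09 with upper quartile scaling and -0.19 with library sizes alone: the core factors Eif4a3 (-0.29) and Rbm8a (-0.32) fell, and Casc3 (0.52) and Upf2 (0.54) rose. These other lists, like the families, overlap in function and were chosen with earlier results of the data known.

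The maturation difference was next taken within each genotype. Within Xbp1flIre1fl 36 members fell and 3 rose, where 53.5% of all genes were called, 26.1% lower and 27.4% higher. Within Xbp1fl 30 fell and 3 rose, where 56.8% of all genes were called, 28.3% lower and 28.4% higher. The members that rose were Hnrnph2, Hnrnph3 and Prpf6 in Xbp1flIre1fl and Hnrnph3, Prpf38b and Srsf5 in Xbp1fl. Of the 63 members 60 had the same sign in both genotypes, 28 were called lower in both and 1, Hnrnph3, was called higher in both. The exceptions in sign, Hnrnpk, Prpf39 and Sf3b1, all lay near 0 in both. Without replicates 2 and 4 of mature Xbp1flIre1fl, 0 members were called higher within that genotype, while over both genotypes the counts were again 45 lower and 4 higher, with a median of -0.26.

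The difference between the genotypes in the maturation change was tested directly, and no member passed (0 of 63, as 0 of all genes tested, 0%, with 0 members called by DESeq2 and 0 by limma). Prpf38b alone had an unadjusted p under 0.05 (0.0475), with a change 0.29 smaller on the log2 scale in Xbp1flIre1fl. Between Xbp1flIre1fl and Xbp1fl, 0 members were called in mature cells, where 0.142% of all genes were called, and 0 in immature cells, where 0.134% were. DESeq2 and limma likewise called 0 members in either stage. Before adjustment, the edgeR test passed 0.05 for 1 member in mature cells, Hnrnpm (log2 fold change 0.14), and for 0 in immature cells. The median size of the genotype difference, regardless of sign, was 0.05 on the log2 scale in mature and 0.04 in immature cells.

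Features that the naming rule did not use varied between the families. The 63 members lie on 18 chromosomes. In the GENCODE M21 annotation, 31 have a transcript marked for nonsense-mediated decay, among them 9 of 10 Srsf genes but 1 of 9 Sf3 genes, and 47 have a retained-intron transcript. More than 10% of the 50-base stretches were shared with other genes' transcripts for 18 members: 7 Snrp, 7 Hnrnp, 3 Srsf, 1 Sf3 and 0 Prpf genes. How reads from such stretches were counted is not given in the sources used here. Transcript types and shared stretches were counted for the members only, so no share over all genes stands beside them. The lowest members were Prpf40b, Hnrnpa1 and Hnrnph3, with 37.3, 53.2 and 77.7 counts per library on average, and their values carry the widest counting error.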

How the data were processed

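Bulk RNA-seq of sorted cDC1s was analysed in 16 libraries, 4 groups of 4. Per the submitters' processing notes, the tools were TopHat2 2.1.0, limma 3.42.2, SAMtools 0.1.19, Trimmomatic 0.35 and FastQC 0.11.4, on mm10. The read counter, the annotation, strandedness and the handling of reads shared between genes are not given in the sources used here. The deposited raw table holds whole-number counts per gene symbol, as the authors made them. The other deposited table, of log2 values for 11843 genes, matched log2 CPM up to a shift per library (largest residual SD 0.0259) and was used only to define members and as an alternative.

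Counts were fitted with edgeR 4.0.16 (R 4.3.3) over all 16 libraries: filterByExpr left 11978 genes, TMM scaling, a robust quasi-likelihood fit with 1 mean per group and 12 residual degrees of freedom, F-tests, and Benjamini-Hochberg adjustment over all genes tested. Genes were called at an adjusted p under 0.05. SE is the absolute log2 fold change over the square root of F. CPM are TMM-scaled. The mature against immature contrast averages both genotypes. On simulated counts the fit was tested for known changes. Ratios of 2 members within a library were tested by exact two-sided permutation of stage within genotype. This permutation did not keep same-numbered libraries of a genotype paired, and no paired test of the ratios was run. The ratio p-values thus do not account for that pairing. Exon lengths, shared 50-base stretches and transcript types came from GENCODE M21 (GRCm38, the same assembly as mm10), and promoters from RefSeq.

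In no group were 2 libraries as alike as repeat counts of 1 library (24 pairs, chi-square over degrees of freedom 5.23 to 57.1). Same-numbered mature and immature libraries of a genotype deviated together (correlation over 7881 genes 0.29 to 0.55 in Xbp1flIre1fl and 0.33 to 0.60 in Xbp1fl, every pair over 0.1), so the numbers pair stages within a genotype; across genotypes they do not. Alternatives were other scalings and filters, DESeq2 1.42.0, limma 3.58.1 on the deposited log2 values, the replicate block and leaving out libraries. Depth of 13948232 to 17000763 counts per library makes 3 counts equal to 0.176 to 0.215 CPM before TMM scaling, and such limits cover counting error only.

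Named genes were, in each family, the 3 called members of smallest adjusted p per direction, the most abundant per kilobase and the one with the largest adjusted p, every Srsf gene, every related pair, and 2 called genes in each direction of the other splicing lists; other names were chosen after values were seen. The values of 1 Prpf gene are not reported here, though the counts include it. The members, lists and this rule were chosen with earlier results of these data known.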

Additional observations from a re-analysis of the deposited data

Results flagged for a closer look

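In 6 of the 132 groups of 4 libraries looked at (33 named members in 4 groups), 1 library lay far from the other three by Dixon's test, which compares its gap to the nearest library with the group's range. Chance would give about 6.6 such groups. Hnrnpab was at 717 CPM in immature Xbp1flIre1fl replicate 4, the others being at 702 to 703 CPM. Srsf3 was at 427 CPM in mature Xbp1flIre1fl replicate 2, the others at 357 to 368 CPM. In immature Xbp1fl libraries, replicate 4 stood apart for Sf3a3 (76.3 CPM, the others 70.8 to 71.2 CPM) and Srsf5 (278 CPM, the others 260 to 263 CPM), and replicate 1 stood apart for Srsf11 (101 CPM, the others 122 to 123 CPM) and Srsf6 (215 CPM, the others 185 to 188 CPM).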

How the results depend on the processing

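Over both genotypes, 45 members lower and 4 higher became 42 to 47 lower and 4 to 5 higher when each library was left out in turn. The replicate block gave 50 members called in all, against 49 without it, whether numbers paired all groups or stages within a genotype (the second chosen after seeing the data), the addition being Srsf11, and no other call over both genotypes changed. Upper quartile scaling gave 2 higher and library sizes alone 0. Within Xbp1fl, 30 lower became 47 and 54 under these 2 scalings (28 to 34 with libraries left out), and 3 higher became 1 and 1, 1 with no filter on low counts, and 1 to 3 with libraries left out. Within Xbp1flIre1fl, 36 lower became 56 with library sizes alone (31 to 39 with libraries left out), and 3 higher became 0 and 0, 0 with no filter, 0 without replicates 2 and 4 of mature Xbp1flIre1fl, and 1 to 4 with libraries left out. Without those 2 libraries Hnrnpr/Hnrnpu passed (0.11, exact p = 0.00571).

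Values near 0 changed sign: Hnrnph2 (-0.073), Prpf6 (-0.044) and Srsf5 (-0.077) with library sizes alone; Hnrnpk with upper quartile scaling (-0.11), library sizes alone (-0.22), no filter (-0.010) and libraries left out (-0.0036 to 0.021); Sf3b1 likewise (-0.11, -0.21, -0.0061 and -0.017 to 0.030) and without replicates 2 and 4 of mature Xbp1flIre1fl (-0.013); and Prpf39 with DESeq2's size factors (0.013), DESeq2 (0.010), limma (0.0081), a filter of 1 CPM (0.0049), the replicate block over all groups (0.0021) or within genotype (0.0013), and libraries left out (-0.055 to 0.037). Of the other values of the 33 members followed singly under the alternatives, 831 were the same in call and direction, 19 passed the test anew and 10 no longer did. The cause was not tested. Low counts limit Prpf40b, Hnrnpa1 and Hnrnph3, and shared sequence limits the Snrp and several Hnrnp levels. Shared sequence also limits Srsf3, Srsf5, Srsf10 and Sf3b4, and with them the ratios Srsf7/Srsf3 and Srsf5/Srsf4. The same limit holds for Snrpb2/Snrpa, Hnrnph2/Hnrnph1, Hnrnpf/Hnrnph1 and the ratios over Hnrnpa1.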
